A study of Mus musculus with 54 samples.

Results

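The genes described here are 47 genes of DNA replication and of the step from G1 into S phase, chosen by name from the 24421 rows of a deposited table of gene counts. All 47 were in the table, and all 47 passed the filter on low counts that left 14320 genes for testing. The choice was made with earlier results of these data known. By role they fall into 4 genes of origin licensing, 6 subunits of the MCM helicase, 6 genes of helicase activation, 6 of the sliding clamp and its loader, 9 of the polymerases and primase, 2 of lagging strand joining, 3 of the single-strand binding complex, 6 of nucleotide supply and uracil removal, 2 of chromatin copying and histone mRNA, and 3 regulators of G1/S.

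A cell that is to divide first loads the MCM helicase onto origins of replication in G1. Cyclin E with its kinase partner and E2F transcription factors then carry the cell into S phase, where the helicase is switched on and DNA polymerases, clamps and a supply of deoxynucleotides copy the genome. Many genes of this machinery are known E2F targets, and their transcripts are low in resting cells and high in cells about to copy DNA. Most hematopoietic stem cells (HSC), the bone marrow cells that renew all blood lineages, rest outside the cycle in an unperturbed adult mouse.

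The HSC came from mice on a C57BL/6 background that carry a green fluorescent protein, ZsGreen, at the Fgd5 locus, a gene whose expression within blood cells marks HSC. Mice received dmPGE2, a stable derivative of prostaglandin E2, or its ethanol vehicle by subcutaneous injection 30 min before 8.53 Gy, a dose that the series states as lethal to 50% of animals, or no radiation. The labels state 35 ug of dmPGE2, but the 3.5 uL of a 0.1 mg/ml stock that they also state would hold 0.35 ug, so the dose is uncertain. Bone marrow HSC were sorted with a widened SLAM-LSK gate and by ZsGreen, and total RNA was sequenced. The groups were 8 libraries of irradiated dmPGE2 mice at 24 h, 8 of irradiated vehicle mice at 24 h, 8 of irradiated dmPGE2 mice at 1 h, 8 of irradiated vehicle mice at 1 h, 7 of non-irradiated dmPGE2 mice at 1 h, and 15 of non-irradiated vehicle mice of 1 h and 24 h, which served as 1 untreated baseline. Age is not given in the sources used here, and no Cre or conditional allele is named. The sort sets which cells were measured, and in such bulk samples fewer cells in S phase and less of a transcript per cell cannot be told apart.

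Total counts ran from 15049364 to 26217041 per library, and the member with the fewest reads, Ung, still had at least 8 in every library. All 10 HSC markers listed, among them Fgd5, Kit, Slamf1 and Procr, were detected in every library of both 24 h groups. The mean log2 CPM of the 47 members (counts relative to library size, CPM, scaled between libraries) placed several libraries apart before any test. In irradiated dmPGE2 mice at 24 h, libraries 5, 6 and 7 lay at 5.45 to 5.65, while the other 5 lay at 6.26 to 6.78. At 1 h, library 6 of irradiated dmPGE2 mice was high at 7.17 and library 3 of irradiated vehicle mice low at 6.04. The 15 baseline libraries held 7 pairs with the same sample tag, whose members correlated, and 1 library with a tag of its own, so these 15 may not be 15 independent mice.

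**Figure D1:**
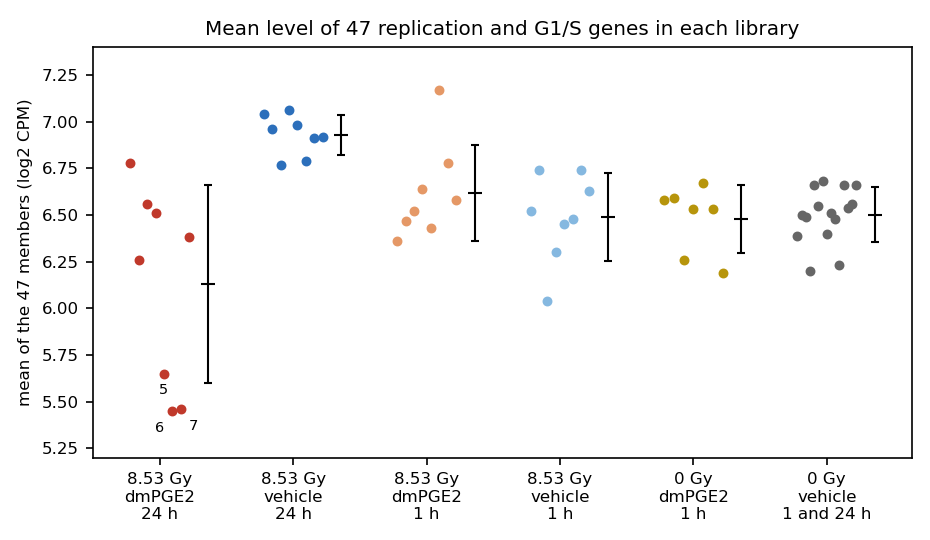
Mean log2 CPM of the 47 members (vertical axis) in each library (points) of each group, with the group mean ± SD as a bar beside it. The 8 irradiated vehicle libraries at 24 h lie at 6.77 to 7.06, and libraries 5 to 7 of irradiated dmPGE2 mice at 24 h, numbered in the plot, lie at 5.45 to 5.65.

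Per length of transcript, the most abundant member in untreated HSC was Mcm6, a helicase subunit, at 269 ± 40.5 RPKM (CPM per kilobase of exon; SD, n = 15). Mcm3, at 194 ± 27.8 RPKM, and Mcm7, at 179 ± 26.8 RPKM, followed, and both lay within their spread of Rfc2, a clamp loader subunit, at 176 ± 19.4 RPKM. At the low end were Orc1, the large subunit of the origin recognition complex, at 5.10 ± 0.95 RPKM, Ccne1 and Ccne2, the genes of cyclins E1 and E2, at 5.26 ± 1.13 and 5.39 ± 1.28 RPKM, and Ung, a uracil-DNA glycosylase, at 3.62 ± 1.01 RPKM. The levels of Orc1, Ccne1 and Ccne2 did not differ beyond their spread. Mcm6 ranked first in all 6 groups. Rrm2, the regulated subunit of ribonucleotide reductase, ranked 10 of 47 in irradiated vehicle mice at 24 h and 25 of 47 in untreated mice.

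The effect of dmPGE2 on irradiated HSC at 24 h ran in 1 direction. All 47 members had a lower fitted level in irradiated dmPGE2 than in irradiated vehicle mice, and 43 fell at an adjusted p below 0.05 (edgeR quasi-likelihood test, Benjamini-Hochberg adjustment over all 14320 genes), while 0 rose. Over all genes tested, 11.5% fell. The median log2 fold change of the members was -0.71, with a range of -1.37 to -0.20, beside a median of 0.03 over all genes. The library ranges of the 2 groups did not overlap for 12 members, and for 37 members all 8 dmPGE2 libraries lay below the vehicle median. How many of all genes do so was not counted. Cdc6, Gins3, Rfc1 and Pole were not called, at log2 fold changes of -0.28, -0.36, -0.20 and -0.38.

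Ccne1, whose cyclin E1 activates CDK2 at the entry into S phase, had the lowest fold change. Its lowest, median and highest library had 3.55, 9.83 and 17.4 CPM in irradiated dmPGE2 mice, against 10.7, 23.8 and 41.6 CPM in irradiated vehicle mice; sets of 3 values below keep that order. The ranges overlapped, and all dmPGE2 libraries were below the vehicle median. The log2 fold change was -1.37 ± 0.24 (SE; edgeR adjusted p = 3.03e-05). Ccne2, the second cyclin E gene, had 3.15, 22.1 and 30.6 CPM in irradiated dmPGE2 mice, against 21.3, 28.6 and 35.9 CPM in irradiated vehicle mice, so that the upper part of the dmPGE2 group lay inside the vehicle range. The log2 fold change was -0.67 ± 0.26 (SE; edgeR adjusted p = 0.0495). Of its exon bases, 53.9% overlap exons of Ints8 on the other strand, and the kit used marks no strand, so its counts are uncertain. The third regulator, E2f1, a transcription factor that drives S phase genes, fell by 0.60 ± 0.21 on the log2 scale (SE; edgeR adjusted p = 0.0300), with dmPGE2 libraries at 23.0, 66.9 and 122.2 CPM, against 84.1, 101.2 and 121.4 CPM with vehicle.

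Pole2, the second subunit of the leading strand polymerase epsilon, spans chr12:69201779-69228190 of mm10 on the minus strand. It had 8.72, 17.6 and 29.8 CPM in irradiated dmPGE2 mice, against 34.1, 48.3 and 52.9 CPM in irradiated vehicle mice. Every dmPGE2 library lay below every vehicle library, and the log2 fold change was -1.36 ± 0.18 (SE; edgeR adjusted p = 1.66e-07). The catalytic subunit Pole did not pass the test, at -0.38 ± 0.15 (SE; edgeR adjusted p = 0.0539). The other 7 genes of this role, subunits of polymerases alpha and delta and both primase subunits, all fell. Among them Prim2, the large primase subunit, fell by 0.80 ± 0.13 on the log2 scale, and its ranges did not overlap.

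The 6 genes of nucleotide supply and uracil removal all fell. Tk1, thymidine kinase 1, which salvages thymidine and lies at chr11:117815519-117826014 on the minus strand, had 28.1, 69.5 and 82.6 CPM in irradiated dmPGE2 mice, against 99.2, 135 and 166 CPM in irradiated vehicle mice. Its groups did not overlap, and its log2 fold change was -1.15 ± 0.17 (SE; edgeR adjusted p = 2.92e-06). Rrm1 and Rrm2 encode the subunits of ribonucleotide reductase, which makes deoxynucleotides. Rrm2 had 68.1, 185 and 248 CPM in irradiated dmPGE2 mice, against 267, 320 and 394 CPM in irradiated vehicle mice, again without overlap. Tyms, thymidylate synthase, also had ranges that did not overlap, and Dut, which breaks down dUTP, fell by 0.75 ± 0.15 on the log2 scale. Ung spread most among the dmPGE2 libraries, from 0.46 to 7.42 CPM, with vehicle libraries from 4.97 to 9.23 CPM.

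In origin licensing, 3 of 4 members fell. Orc1 fell by 0.88 ± 0.22 and Orc6, another subunit of the complex, by 0.67 ± 0.13 on the log2 scale, and Cdt1, which helps load the helicase, by 0.65 ± 0.18. Cdc6, the other loading factor, had 17.9, 58.6 and 89.8 CPM in irradiated dmPGE2 mice, against 40.6, 74.1 and 93 CPM in irradiated vehicle mice, largely overlapping. The 6 subunits of the MCM helicase fell by like amounts, from -0.77 for Mcm5 to -0.60 for Mcm4 as log2 fold changes. Mcm2 had 117, 328 and 508 CPM in irradiated dmPGE2 mice, against 450, 516 and 604 CPM in irradiated vehicle mice. The highest dmPGE2 libraries thus reached the vehicle range.

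Of the 6 genes that activate the loaded helicase, 5 fell. Gins2, a subunit of the GINS complex, had 9.80, 34.6 and 51.4 CPM in irradiated dmPGE2 mice, against 53.2, 59.3 and 70.98 CPM in irradiated vehicle mice, without overlap, and its log2 fold change was -1.01 ± 0.19 (SE; edgeR adjusted p = 7.61e-05). Cdc45, which joins GINS and MCM in the active helicase, fell by 0.89 ± 0.15 on the log2 scale and its groups did not overlap either. Gins3 was not called, while its partner Gins4 fell by 0.38 ± 0.10.

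Pcna, the sliding clamp that holds polymerases on DNA, had 118, 212 and 251 CPM in irradiated dmPGE2 mice, against 263, 274 and 337 CPM in irradiated vehicle mice, with no overlap and a log2 fold change of -0.59 ± 0.11 (SE; edgeR adjusted p = 0.000103). Of the clamp loader subunits, Rfc4 had the lowest fold change at -0.91 ± 0.14 and Rfc1, the large subunit, was not called at -0.20 ± 0.18. Both genes of lagging strand joining fell, Fen1, a flap endonuclease, by 0.78 ± 0.14 and Lig1, DNA ligase 1, by 0.93 ± 0.19 on the log2 scale. The 3 subunits of replication protein A, which coats single-stranded DNA, fell by 0.51, 0.46 and 0.84 on that scale for Rpa1, Rpa2 and Rpa3. Uhrf1, which helps copy DNA methylation, fell by 0.71 ± 0.21, and Slbp, which binds the stem-loop of histone mRNAs, by 0.41 ± 0.09.

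The smallest called changes were those of Gins4, Rfc3, Slbp, Rpa2 and Pold3. Gins4 had 49.3, 85.97 and 97.6 CPM in irradiated dmPGE2 mice, against 82.8, 101.3 and 119.0 CPM in irradiated vehicle mice. Rfc3, a clamp loader subunit, had 43.7, 68.6 and 79.2 CPM with dmPGE2, against 73.2, 86.5 and 97.6 CPM with vehicle, and Slbp had 96.6, 134.3 and 172.8 CPM with dmPGE2, against 158.8, 180.9 and 202.2 CPM with vehicle. In these 3 the upper dmPGE2 libraries lay inside the vehicle range. Rpa2 had 86.9, 139.1 and 179.9 CPM with dmPGE2, against 140.6, 191.0 and 212.2 CPM with vehicle, and Pold3, a subunit of polymerase delta, had 40.1, 67.6 and 90.7 CPM with dmPGE2, against 83.3, 93.02 and 109.8 CPM with vehicle. Both overlapped in the same way. Lig1 had 37.4, 76.1 and 126.9 CPM with dmPGE2, against 112.2, 146.7 and 154.3 CPM with vehicle. Exons of Gins2, Rfc4, Tk1, Pold2 and Lig1 share 3.3% to 13.2% of their bases with a gene on the other strand, so a part of their counts is uncertain.

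**Figure D2:**
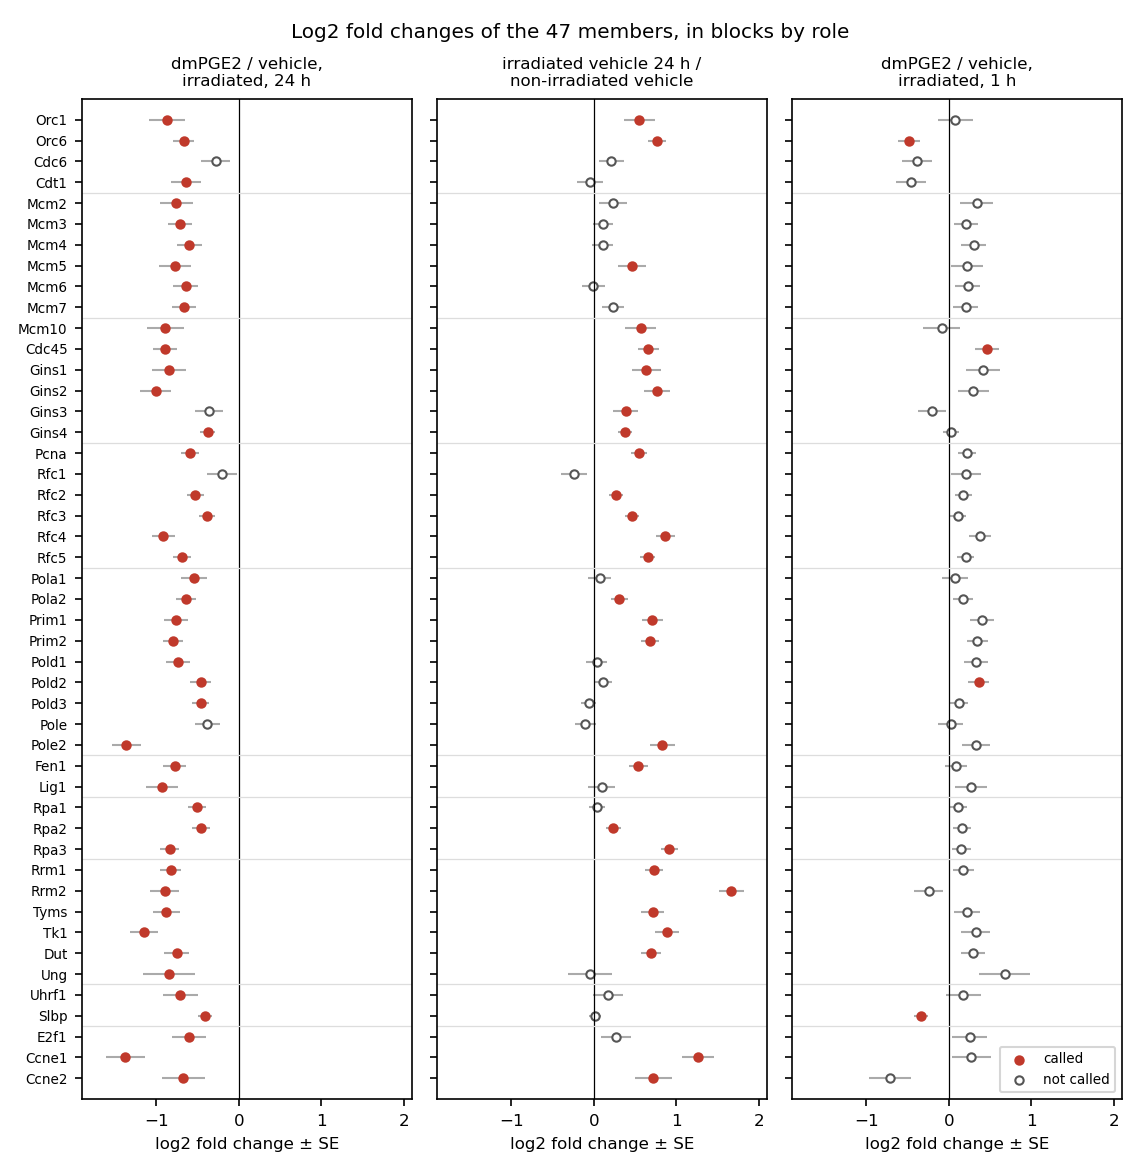
Log2 fold change ± SE (horizontal axis) of each member (rows, in blocks by role) for dmPGE2 over vehicle in irradiated HSC at 24 h, for irradiated vehicle HSC at 24 h over non-irradiated vehicle HSC, and for dmPGE2 over vehicle in irradiated HSC at 1 h; filled points passed the test. The left panel holds 43 lower calls, the middle panel 28 higher calls, and the right panel 2 higher and 2 lower calls.

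The size of this fall differed among the dmPGE2 mice. Libraries 5, 6 and 7 were among the 3 lowest of the group for 40, 46 and 44 of the 47 members. Library 1 was among the 2 highest for 42. The median SD of a member across the group was 0.57 on the log2 CPM scale with dmPGE2 and 0.18 with vehicle, while over all genes it was 0.41 and 0.32. Mcm2 had 174, 120 and 117 CPM in libraries 5, 6 and 7, and 269 to 508 CPM in the other 5 dmPGE2 libraries. For Rrm2 the same libraries had 68.1, 108 and 140 CPM, and the other 5 had 181 to 248 CPM. The total counts of these 3 libraries, 17371333 to 19770654, were below those of the other 5.

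Without libraries 5 to 7, which were left out after seeing that they stood apart, 22 of the 43 members still fell, 0 rose, and the median log2 fold change was -0.37. Over all genes, 3.78% then fell. Ccne1 stood at -1.05 ± 0.24 (SE; edgeR adjusted p = 0.0039), Pole2 at -1.03 ± 0.17, Tk1 at -0.84 ± 0.17 and Rpa3 at -0.66 ± 0.12. Of the MCM subunits, Mcm3 alone passed the test, at -0.41 ± 0.13. E2f1, Ung, Orc1, Cdt1, Uhrf1 and Slbp did not pass. Leaving out single libraries ended the call for E2f1 (library 6 of the dmPGE2 group) and for Ung and Ccne2 (library 7).

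**Figure D3:**
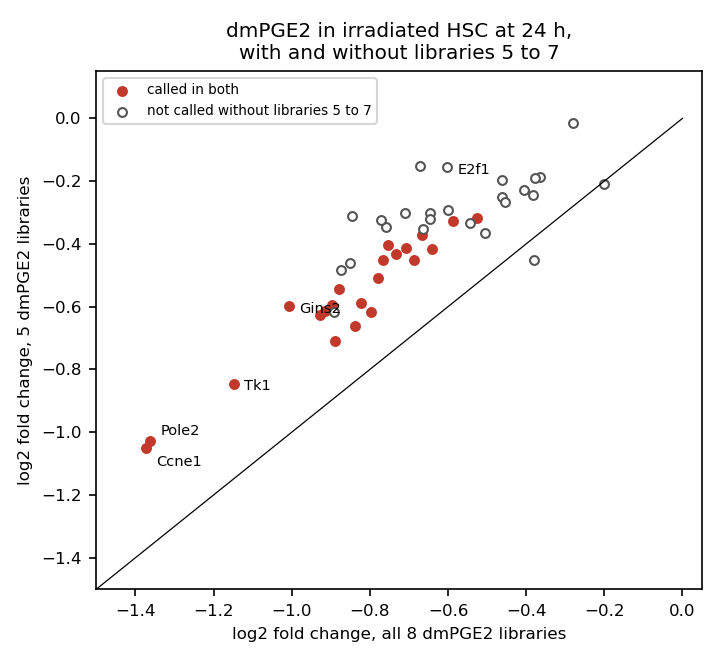
Log2 fold change of each member for dmPGE2 over vehicle in irradiated HSC at 24 h with all 8 dmPGE2 libraries (horizontal axis) and with libraries 5 to 7 left out (vertical axis); the line marks equal values and filled points passed the test in both. Most points lie above the line, and the median log2 fold change was -0.71 with all 8 libraries and -0.37 with 5.

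Other cell markers moved in the same comparison, in which 1781 of all 14320 genes rose and 1640 fell. The summed CPM of 10 HSC markers was 2800 to 4574 in irradiated dmPGE2 mice, with 3792 to 4574 in libraries 5 to 7, and 2205 to 3111 in irradiated vehicle mice. The sum of 6 megakaryocyte markers was 272 to 992 in irradiated dmPGE2 mice, against 860 to 1816 in irradiated vehicle mice and 422 to 776 in untreated mice, and Pf4, Itga2b, Gp5 and Vwf of that list fell. None of the 6 was at 0 in any library of these groups. Of 9 committed progenitor markers, Flt3, Prtn3 and Dntt rose, with a sum of 276 to 492.5 CPM in irradiated dmPGE2 mice, against 106 to 460 CPM in irradiated vehicle mice. Of 5 stromal markers, Lepr, Col1a1 and Pdgfra rose, and their sum reached 391.5 CPM in 1 dmPGE2 library, against at most 53.6 CPM in irradiated vehicle mice. Of 9 neutrophil markers 3 rose, with sums of 7.64 to 704.5 CPM in irradiated dmPGE2 mice, against 8.999 to 188.9 CPM in irradiated vehicle mice, and 4 of 7 monocyte markers rose, with sums of 487 to 781.5 CPM, against 603 to 829.9 CPM. Erythroid sums were 43.4 to 114 CPM in irradiated dmPGE2 mice, against 71.7 to 149 CPM in irradiated vehicle mice. Their part in the fall of the members was not tested.

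The 24 h libraries 1 to 4 of each group are female and 5 to 8 male, so the 3 low libraries are all male. In males, 41 members fell with dmPGE2 and 0 rose (edgeR quasi-likelihood test on the 16 libraries of 24 h), where 8.39% of all 13714 genes fell, with a median log2 fold change of the members of -1.11. In females 0 were called, where 0.146% of all genes fell, with a median of -0.34. At an unadjusted p below 0.05 females had 16 of the 47 members and 1562 of all 13714 genes. The difference between the sexes itself was called for 0 members, and for 0.0% of all genes, by edgeR. At an unadjusted p below 0.05 it held 27 of the 47 members and 1623 of all 13714 genes, and DESeq2 called 1 member, E2f1, and 32 of all genes. The mean log2 CPM of the members was 5.74 ± 0.44 in dmPGE2 males, against 6.90 ± 0.08 in vehicle males, and 6.53 ± 0.21 in dmPGE2 females, against 6.96 ± 0.13 in vehicle females (SD, n = 4 each). The fourth dmPGE2 male, library 8, lay at 6.38, within the range of the females.

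The next question was how the irradiated vehicle HSC at 24 h stood against untreated HSC. Sample tags of the irradiated 24 h libraries begin with 6 or 7, and those of all baseline and 1 h libraries with 5. No tag is thus shared across this contrast, and radiation and tag cannot be told apart in it. Of the 47 members, 28 were higher and 0 lower, with a median log2 fold change of 0.39 beside -0.06 over all genes. Over all genes, 23.3% were higher, so that a background of about 1 in 4 genes goes with this contrast. The library ranges did not overlap for 18 members, a count that was not made over all genes. Rrm2 led with 267, 320 and 394 CPM in irradiated vehicle mice at 24 h, against 72.3, 103 and 138 CPM in untreated mice, and a log2 fold change of 1.67 ± 0.15 (SE; edgeR adjusted p = 1.11e-13). Its gene lies at chr12:24708254-24714146 on the plus strand. Ccne1 followed at 1.26 ± 0.20, with 10.7, 23.8 and 41.6 CPM in irradiated vehicle mice and 6.55, 10.1 and 14.4 CPM in untreated mice.

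The roles did not move alike in that contrast. All 6 genes of helicase activation rose, with log2 fold changes of 0.38 to 0.76, as did 5 of the 6 clamp and clamp loader genes, all but Rfc1. In nucleotide supply Rrm1, Rrm2, Tyms, Tk1 and Dut rose and Ung did not pass the test. In contrast, of the 6 MCM subunits Mcm5 alone passed the test, at 0.46 ± 0.17, and Mcm6 stood at -0.00 ± 0.13, with 612, 818 and 849 CPM in irradiated vehicle mice and 564, 775 and 978 CPM in untreated mice. Both primase subunits and Pole2 rose, by 0.71, 0.68 and 0.83 on the log2 scale for Prim1, Prim2 and Pole2, while Pold1, Pold2, Pold3, Pola1 and Pole did not pass the test and lay between -0.10 and 0.11. Fen1 rose by 0.54 ± 0.12, and Lig1 stood at 0.10 ± 0.17. Rpa3 rose by 0.92 ± 0.10 and Rpa1 stood at 0.04 ± 0.10. The difference between roles was not tested.

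In the same contrast 8 of the 10 HSC markers fell and 1 rose, and 4 of the 6 megakaryocyte markers rose. Of all 14320 genes tested, 3789 fell and 3331 rose. The HSC marker sum was 2205 to 3111 CPM in irradiated vehicle mice at 24 h, against 3208 to 4939 CPM in untreated mice, and the committed progenitor sum 106 to 460 CPM, against 310 to 1822 CPM. Of the committed progenitor markers, 6 of 9 fell. Their part in the members' rise was not tested. Without 1 of the irradiated vehicle libraries, 4 for Gins3 and 1 for Rpa2, these 2 members no longer passed the test. Mcm5 and Rpa2 did not pass under any of the 3 other choices of baseline libraries, so the single MCM call rested on the full baseline.

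Irradiated vehicle HSC at 24 h were also set against irradiated vehicle HSC at 1 h, which needs no baseline library. These groups share no sample tag either, so time and tag cannot be told apart. Of the members, 26 were higher at 24 h and 1, Slbp, was lower, with a median log2 fold change of 0.37. Over all genes 23.4% were higher at 24 h. Rrm2 had 267, 320 and 394 CPM at 24 h and 107, 143 and 179 CPM at 1 h, a log2 fold change of 1.20 ± 0.18 (SE; edgeR adjusted p = 1.52e-07). Ccne1 stood at 1.25 ± 0.24, Rfc4 at 1.08 ± 0.14, Tk1 at 1.04 ± 0.17 and Rpa3 at 1.01 ± 0.12. Without library 3 of the 1 h group, which was low for most members, 22 were higher, and Mcm5, Pola2 and Pold2 were among those that no longer passed the test. Without library 4 of the 24 h group, Gins3 did not pass.

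**Figure D4:**
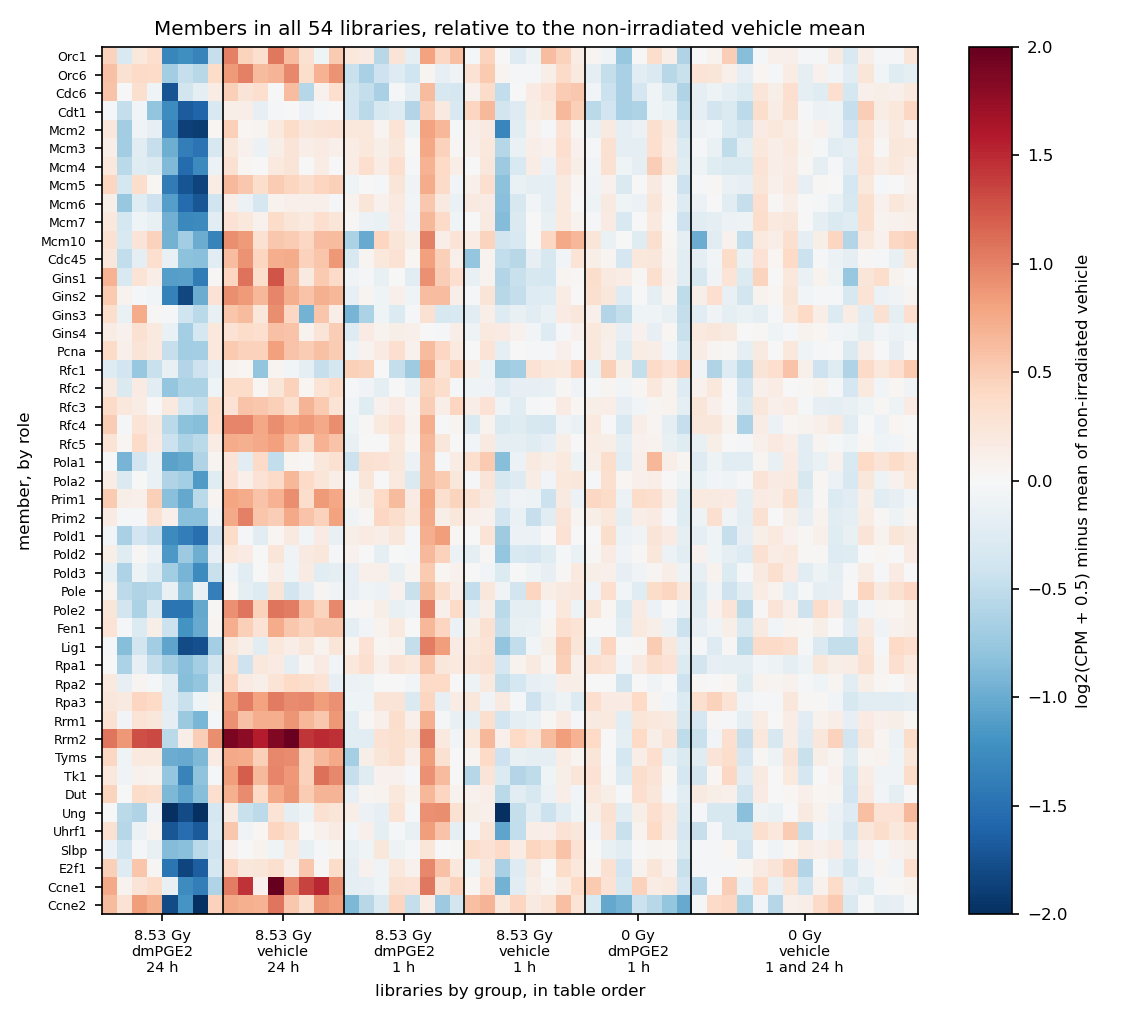
Each member (rows, by role) in each of the 54 libraries (columns, in blocks by group), as log2(CPM + 0.5) minus the mean of the 15 non-irradiated vehicle libraries; blue is lower and red higher, on a scale that ends at -2 and 2. The irradiated vehicle block at 24 h is red for Rrm2 and Ccne1 (log2 fold changes of 1.67 and 1.26), and libraries 5 to 7 of the irradiated dmPGE2 block at 24 h are blue for most members.

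Set against untreated HSC, the irradiated dmPGE2 HSC at 24 h had 20 members lower and 1, Rrm2, higher, with a median log2 fold change of -0.26. Over all genes 17.3% were lower. This contrast shares its dmPGE2 libraries with the comparison to irradiated vehicle mice and its untreated libraries with the radiation contrast. Its groups share no sample tag, so treatment and tag cannot be told apart. Rrm2 had 68.1, 185 and 248 CPM in irradiated dmPGE2 mice, against 72.3, 103 and 138 CPM in untreated mice, a log2 fold change of 0.77 ± 0.15 (SE; edgeR adjusted p = 5.67e-05). The lower members included 5 of the 6 MCM subunits, 7 of the 9 polymerase and primase genes and both Slbp and Uhrf1, while helicase activation had 0 of 6 called. Pold1, the catalytic subunit of polymerase delta, had 85.96, 166.5 and 235.0 CPM in irradiated dmPGE2 mice, against 177, 257 and 293 CPM in untreated mice, and fell by 0.70 ± 0.13 on the log2 scale. Lig1 fell by 0.83 ± 0.17 and Cdt1 by 0.69 ± 0.16. Ranges overlapped for all 47 members.

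Without libraries 5 to 7, 8 members were lower and 8 higher, and the median log2 fold change was 0.03. Over all genes 19.5% were then lower and 18.7% higher, shares near those of the members. The 8 lower ones were Mcm3, Mcm6, Pold1, Pold3, Pole, Lig1, Rpa1 and Slbp, at -0.55 to -0.22. The 8 higher ones were Rrm2 at 1.07 ± 0.14, Ccne2, Orc6, Dut, Rfc4, Pcna, Rfc3 and Rfc5, the last at 0.20 ± 0.08. Mcm2, Pola2, Rfc2 and Uhrf1 each lost their call when library 7, or for Rfc2 library 5, was left out alone.

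At 1 h after radiation, dmPGE2 went with few calls among the members. In irradiated HSC, Cdc45 and Pold2, a subunit of polymerase delta, were higher with dmPGE2, and Orc6 and Slbp lower. That is 4 of 47, where 14.8% of all genes were called. The median log2 fold change was 0.20, beside 0.01 over all genes, and 39 members had a positive sign. With the sample tag as a block, 9 were called, where 18.8% of all genes were. The 5 gained were Prim1, Prim2 and Rfc4, all higher, and Ccne2 and Cdt1, both lower.

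Slbp had 160, 175 and 209 CPM in irradiated dmPGE2 mice at 1 h, against 196, 228 and 263 CPM in irradiated vehicle mice, a log2 fold change of -0.34 ± 0.09 (SE; edgeR adjusted p = 0.0039). Orc6 had 36.0, 44.97 and 58.6 CPM with dmPGE2, against 55.5, 63.4 and 81.6 CPM with vehicle. Its log2 fold change was -0.48 ± 0.13 (SE; edgeR adjusted p = 0.0058). Its groups barely overlapped. Cdc45 had 43.4, 59.8 and 95.1 CPM with dmPGE2, against 31.3, 45.2 and 65.1 CPM with vehicle, at 0.47 ± 0.15 (SE; edgeR adjusted p = 0.0209), and Pold2 stood at 0.36 ± 0.13 (SE; edgeR adjusted p = 0.0407). Both higher calls rested on the libraries that stood apart. Without library 6 of the dmPGE2 group, 0 members were higher and 5 lower, with a median of 0.11, and without library 3 of the vehicle group 0 were higher and 3 lower, with a median of 0.13. Without library 2 of the dmPGE2 group, 5 were higher and 2 lower.

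Without radiation, dmPGE2 at 1 h went with lower Orc6 and Ccne2 and with 0 higher members, which is 2 of 47 where 11.1% of all genes were called. Ccne2 had 8.09, 9.69 and 13.6 CPM in non-irradiated dmPGE2 mice, against 10.8, 16.7 and 24.6 CPM in untreated mice, a log2 fold change of -0.76 ± 0.24 (SE; edgeR adjusted p = 0.0325), with the reads shared with Ints8 as above. Orc6 had 36.0, 41.3 and 49.1 CPM, against 47.7, 55.03 and 68.7 CPM, at -0.41 ± 0.12 (SE; edgeR adjusted p = 0.0160). With the tag as a block, Cdt1 was also called, at -0.52 ± 0.13 (SE; edgeR adjusted p = 0.0057). Neither call held in every fit. Ccne2 was lost without library 2 of the dmPGE2 group. Without library 3 of that group, 0 members were called by edgeR. When baseline libraries of the same tag were summed, 0 were called.

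Radiation with vehicle at 1 h, against untreated HSC, went with higher Rrm2 and Slbp and no lower member, 2 of 47 where 16% of all genes were called. Slbp had 196, 228 and 263 CPM in irradiated vehicle mice at 1 h, against 135, 182 and 199 CPM in untreated mice, a log2 fold change of 0.35 ± 0.07 (SE; edgeR adjusted p = 0.000329). Rrm2 had 107, 143 and 179 CPM, against 72.3, 103 and 138 CPM, at 0.47 ± 0.15 (SE; edgeR adjusted p = 0.0260). The Rrm2 call was lost when library 2, 6, 7 or 8 of the irradiated group was left out, and when baseline libraries of the same tag were summed. Under dmPGE2, radiation at 1 h went with 0 called members by edgeR or DESeq2 and 0 at an unadjusted p below 0.05, where 0.377% of all genes were called. The log2 fold changes there lay between -0.08 and 0.43, with a median of 0.17.

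**Figure D5:**
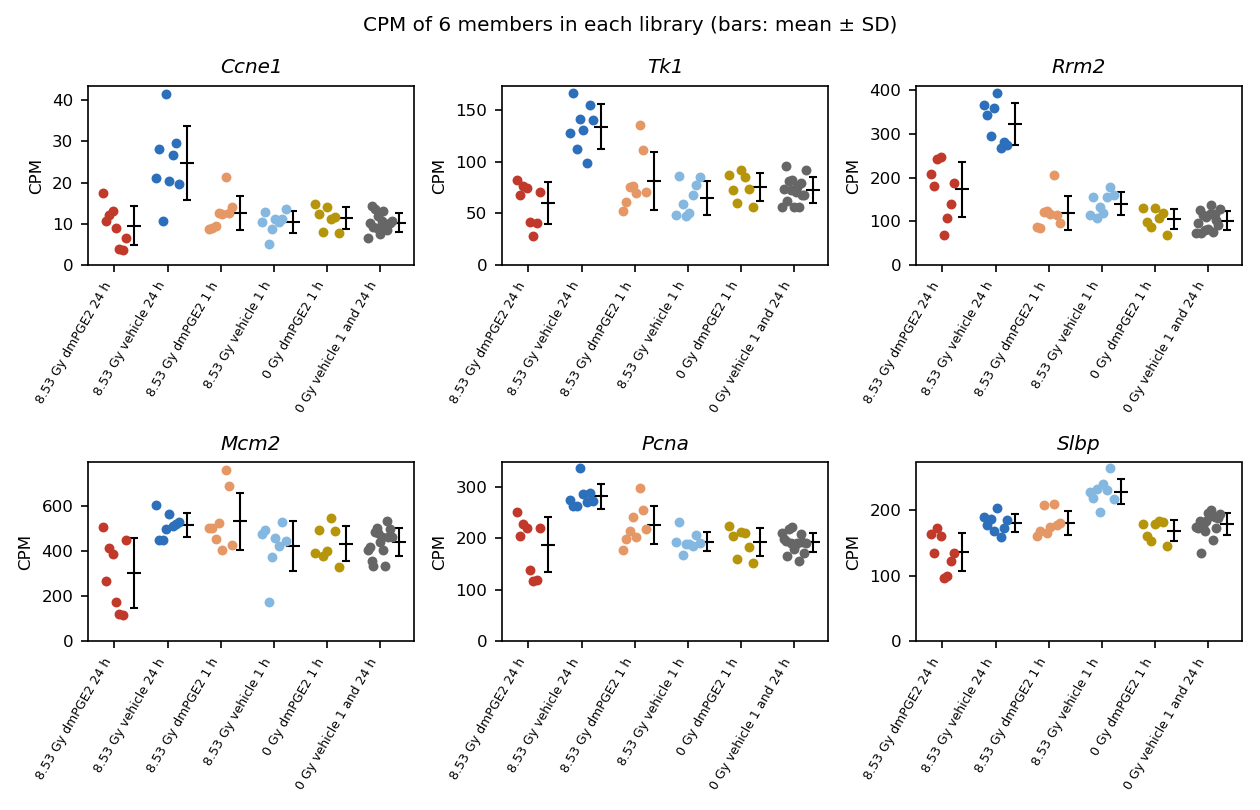
CPM (vertical axes, from 0) of 6 members in each library (points) of the 6 groups, with the group mean ± SD as a bar beside the points. Tk1 and Rrm2 are higher in all 8 irradiated vehicle libraries at 24 h than in any dmPGE2 library at 24 h, and Slbp is highest in irradiated vehicle libraries at 1 h, at 196 to 263 CPM.

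The dmPGE2 effect in irradiated HSC at 24 h was then set against that at 1 h by a test of the difference, which uses separate libraries for each time. For 38 members it was lower at 24 h and for 0 higher (edgeR quasi-likelihood test), with a median difference of -0.87 in log2 fold change. Over all genes 12.6% were lower. Pole2 stood at -1.69 ± 0.25 (SE; edgeR adjusted p = 9.33e-07), with log2 fold changes of -1.36 at 24 h and 0.33 at 1 h. Ccne1 differed by -1.64 ± 0.34, Tk1 by -1.47 ± 0.24 and Cdc45 by -1.35 ± 0.21. All 6 MCM subunits passed the test, at -1.10 to -0.87. The 9 not called were Orc6, Cdc6, Cdt1, Mcm10, Gins3, Rfc1, Pole, Slbp and Ccne2. With the sample tag (tag and sex at 24 h) as a block, Mcm10, Rfc1 and Pole were called too, which makes 41. In that fit 4537 of all 14320 genes were called. DESeq2 also called Mcm10. Of the 9, Orc6 had log2 fold changes of -0.67 at 24 h and -0.48 at 1 h, Slbp -0.41 and -0.34, and Ccne2 -0.67 and -0.71. Without libraries 5 to 7 of the 24 h dmPGE2 group, 31 members remained lower, with a median of -0.56. There 1256 of all 14539 genes were lower. Rrm2, E2f1 and Uhrf1 lost their call without library 6 of the 1 h dmPGE2 group, and Pola1 without library 3 of the 1 h vehicle group.

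Promoter sequences of 39 members were found in RefSeq (GRCm38.p6, the assembly of mm10), as windows of 300 bases from 250 before to 50 after the annotated start. Each was searched on both strands for the E2F words TTTCCCGC, TTTCGCGC, TTTGCCGC and TTTGGCGC. They were present in 15 of the 39, or 38.5%, while 4.5% of the 10830 tested genes with a promoter and 2.6% of all 27025 genes had one. The 21 matches included 4 that overlapped another match, in 2 promoters, and 13 lay within 100 bases of the start. The word CCAAT, bound by NF-Y and also common at cell cycle genes, was in 59% of members, 42.3% of tested genes and 41.1% of all genes. The median log2 fold change for dmPGE2 at 24 h was -0.67 in the 15 members with an E2F word and -0.76 in the 24 without. A match is a string of letters and not a shown binding site. Shown are 180 bases of 4 promoters, from 150 before to 30 after the start, 5′ to 3′ on the strand of the gene, with E2F words in capitals. They are those of Pole2 and Ccne1, which had the lowest fold changes with and without a word, of Mcm6, the most abundant member, and of Orc1 of origin licensing.
Pole2 (chr12:69228161-69228340, minus strand): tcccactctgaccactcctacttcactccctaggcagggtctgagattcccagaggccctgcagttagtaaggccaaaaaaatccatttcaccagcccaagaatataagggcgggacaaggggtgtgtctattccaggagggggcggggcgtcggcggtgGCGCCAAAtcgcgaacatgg
Ccne1 (chr7:38107461-38107640, minus strand): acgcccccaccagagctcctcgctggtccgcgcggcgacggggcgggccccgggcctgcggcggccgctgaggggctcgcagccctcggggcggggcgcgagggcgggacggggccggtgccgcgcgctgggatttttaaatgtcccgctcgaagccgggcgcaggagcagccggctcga
Mcm6 (chr1:128359676-128359855, minus strand): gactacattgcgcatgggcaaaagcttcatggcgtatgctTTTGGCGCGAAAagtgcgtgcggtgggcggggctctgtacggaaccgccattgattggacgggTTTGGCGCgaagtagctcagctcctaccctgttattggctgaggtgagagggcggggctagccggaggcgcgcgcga
Orc1 (chr4:108579304-108579483, plus strand): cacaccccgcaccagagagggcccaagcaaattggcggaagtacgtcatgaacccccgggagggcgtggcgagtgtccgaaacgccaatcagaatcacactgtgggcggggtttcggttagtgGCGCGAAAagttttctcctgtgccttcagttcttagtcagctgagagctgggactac

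In Pole2 the word begins 10 bases past the start, and in Orc1 27 bases before it. In Mcm6, 2 overlapping words begin 110 and 106 bases before the start and another 47 bases before it. At 24 h, dmPGE2 went with log2 fold changes of -1.36 for Pole2, -1.37 for Ccne1, -0.65 for Mcm6 and -0.88 for Orc1.

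A further list of 49 genes of replication and cell cycle entry that are not among the 47 was tabulated beside them. With dmPGE2 in irradiated HSC at 24 h, 30 of the 49 fell and 1 rose, with a median log2 fold change of -0.43, where 11.5% of all genes fell. Dna2, a nuclease of lagging strand processing, fell by 1.10 ± 0.24 on the log2 scale, and Mcm8, a paralogue of the helicase subunits, by 1.01 ± 0.18. Gmnn, which encodes the licensing inhibitor geminin, fell by 0.85 ± 0.14 and Ccna2, the cyclin A2 gene, by 0.80 ± 0.22. E2f5, an E2F family member known as a repressor, was the gene that rose, by 0.68 ± 0.18. In irradiated vehicle HSC at 24 h against untreated HSC, 23 rose and 5 fell, where 3331 of all 14320 genes rose and 3789 fell. Ccna2 rose by 1.34 ± 0.19, Tipin, a fork protection factor, by 1.03 ± 0.11 and Asf1b, a histone chaperone, by 0.91 ± 0.14, while E2f5 fell by 0.61 ± 0.16. At 1 h in irradiated HSC, dmPGE2 went with 5 higher and 2 lower genes of the 49, a share near the 14.8% of all genes called. Tipin had the highest fold change, at 0.59 ± 0.13, and E2f5 the lowest, at -0.56 ± 0.17.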

How the data were processed

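RNA of sorted HSC was made into libraries with SMART-Seq v4 and Nextera XT, per the labels' protocols, a kit that keeps neither strand nor molecular identifiers. The submitters' processing notes name STAR 2.5.2b, the build mm10 and featureCounts from Subread 1.5.1. Per the file headers and values, the deposited numbers are raw whole counts, and no strand setting was found. The authors' table holds 24421 genes and 54 libraries, with 15049364 to 26217041 counts each and 0 mitochondrial genes.

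Column names give a group in part: radiation is missing at 24 h and the time at 1 h, so each column was placed where the labels' groups left a single choice. The 15 non-irradiated vehicle columns name no time and were pooled. Libraries are numbered in table order. Counts of sex-linked genes matched the stated sex in 16 of 16 libraries of 24 h. The baseline columns name no sex. By the same counts, baseline libraries 3, 7, 10, 13 and 15 were of 1 sex and the rest of the other. That split is less even than the labels' males and females, so the link of these columns to labelled mice is uncertain. Sample tags paired the 1 h groups: same-tag correlations of deviations were 0.16 to 0.66 between the irradiated groups, all over 0.1 in 8 of 8 pairs. At 24 h they were 0.00 to 0.19, over 0.1 in 4 of 8. Baseline libraries of 1 tag correlated at 0.41 to 0.72 but differed by more than sampling noise (chi-square per gene of 18.6 to 42.8). Their median was 23.7, against 53.1 for pairs of unlike tags. Sex by counts matched in 7 of 7 same-tag pairs and in 24 of 49 pairs of unlike tags. Each library was kept, but such a difference cannot tell separate mice from separate preparations of 1 mouse. Nothing else says what the tag stands for, and p-values measure the spread between these libraries, taken per gene over all 6 groups. That spread was unequal. The median SD of a member was 0.57 log2 CPM in irradiated dmPGE2 mice at 24 h and 0.18 to 0.30 in the other groups. The p-values of contrasts with that group can thus be too small.

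Genes were kept by filterByExpr (count minimum 10), scaled by TMM and fitted with edgeR 4.0.16 (R 4.3.3), a robust quasi-likelihood model with 6 group means on 54 libraries (14320 genes, 48 residual degrees of freedom, common dispersion 0.121). The sexes were fitted on 16 libraries of 24 h (13714 genes). Adjusted p are Benjamini-Hochberg values over all genes, called below 0.05. The SE is the absolute log2 fold change over the square root of F. CPM carry TMM factors, log2 CPM use a prior count of 3, and RPKM divide by the summed exon length that the table gives. Marker sums were scaled to total counts without TMM. The fit was tested on simulated data. DESeq2 1.42.0, other scalings, filters, blocks and left-out libraries were alternatives.

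The members and all gene lists were chosen with earlier results of these data known. Library values were to be given for the called members with the 5 largest and 5 smallest changes for dmPGE2 at 24 h, for those called at 1 h, and for Pcna, Mcm2, Cdc6, Ccne1 and E2f1; the other members given by values were chosen after these were seen.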

Additional observations from a re-analysis of the deposited data

Results flagged for a closer look

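Dixon's criterion was applied to 19 named members and to the mean of the 47 members, in each group but the non-irradiated vehicle one. Of these 100 sets, 9 held a library far from the others of its group. The sets share libraries, so this number cannot be held against the rate of about 1 in 20 that separate sets would give. Library 6 of irradiated dmPGE2 mice at 1 h was the highest for 5 members. It had 21.4 CPM of Ccne1, where the next library had 14.1 CPM, 50.9 CPM of Pole2 (next 32.9 CPM), 141 CPM of Pold3 (next 105 CPM), 205 CPM of Rrm2 (next 124 CPM) and 93.5 CPM of Cdc6 (next 58.4 CPM). Library 1 of that group was lowest for Gins4, at 65.97 CPM with the next at 78.3 CPM. Library 3 of irradiated vehicle mice at 1 h was lowest for Mcm2, at 175 CPM with the next at 376 CPM. At 24 h in irradiated vehicle mice, library 3 was lowest for Lig1, at 112 CPM with the next at 136 CPM, and library 4 highest for Pcna, at 337 CPM with the next at 289 CPM.

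The dmPGE2 effect in irradiated HSC differed between 24 h and 1 h for 38 of the 47 members, by a test of the difference itself (edgeR quasi-likelihood). Over all genes, 3641 of 14320 were called, 1798 of them lower. Without libraries 5 to 7 of the 24 h dmPGE2 group, Rrm2, Uhrf1, E2f1, Orc1, Rfc3, Gins4 and Pola1 lost their call.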

How the results depend on the processing

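No called member reversed its direction under the alternatives run, while some that were not called changed sign, among them Pcna, Rfc4, Rfc5 and Dut for irradiated dmPGE2 HSC at 24 h against untreated HSC without libraries 5 to 7. With dmPGE2 in irradiated HSC at 24 h, 43 were called. The count was 22 without dmPGE2 libraries 5 to 7, 17 without library 3 as well, and 40 to 44 with single libraries left out. It was 30 with only the 2 groups fitted and 38 with sex as a term, both fits that take the spread from the 24 h libraries alone. All-gene calls moved as well, from 3421 of 14320 to 1123 of 14539 without libraries 5 to 7. They were 854 of 14714 without library 3 as well, 1507 of 12876 with the 2 groups alone and 1809 of 13255 with sex. With the sample tag, and at 24 h also the sex, as a replicate block, 44 were called (Pole gained), where 4296 of 14320 genes were. This block paired each 24 h dmPGE2 library with 1 vehicle library. Such pairs correlated weakly, at 0 to 0.19, and 4 of 8 libraries correlated best with their own tag. For dmPGE2 in irradiated HSC at 1 h, where 4 were called, DESeq2's size factors gave 7, DESeq2 8, the replicate block 9, and single libraries left out 3 to 7. All-gene calls were 2121 of 14320 in the main fit, 2166 with DESeq2's size factors, 2383 with DESeq2 and 2686 with the block. For radiation with vehicle at 1 h, where 2 were called, the 2 groups alone gave 4, summed baseline tags 1, only baseline libraries numbered among the 1 h columns 1, and single libraries left out 1 to 2. All-gene calls were 2285 of 14320 in the main fit and 2868 of 13475 with the 2 groups alone. They were 1543 of 14196 with summed tags and 1244 of 14208 with baseline libraries among the 1 h columns. For dmPGE2 without radiation, the 2 groups alone gave 4, summed tags 0, those numbered among the 1 h columns 0, and single libraries left out 0 to 2. All-gene calls were 1589 of 14320 in the main fit and 2142 of 13572 with the 2 groups alone. They were 1128 of 14196 with summed tags and 1075 of 14208 with baseline libraries among the 1 h columns. For irradiated dmPGE2 HSC at 24 h against untreated HSC, 21 were called, where 5206 of all 14320 genes were. Leaving out libraries 3, 5, 6 and 7 gave 10 (4620 of 14714 genes). Using only baseline libraries numbered before the 24 h columns gave 12 (3100 of 14191 genes), and single libraries left out 17 to 25. DESeq2 called 1 member, E2f1, for the sexes. For radiation at 24 h, 28 were called, where 7120 of all 14320 genes were. Summed tags gave 25 (6311 of 14196 genes) and only baseline libraries numbered among the 1 h columns 24 (6726 of 14208 genes). Only those numbered before the 24 h columns gave 23 (5322 of 14191 genes). Mcm5 and Rpa2 were lost each time. Left-out single libraries gave 26 to 28 calls for radiation at 24 h, 23 to 28 for 24 h against 1 h, 34 to 39 for the difference of the dmPGE2 effects, and 0 for radiation under dmPGE2. Beyond the calls named in the report, the replicate block changed no other call at 1 h. Alternatives on tags and column numbers were added after seeing the data, and the cause of these shifts was not tested.

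Lower depth limits Ung most, with 8 reads in 1 library. The baseline of 15 libraries holds shared tags and both times, and the 24 h low libraries are all male, so library, sex and dmPGE2 response cannot be told apart there. The irradiated groups of 24 h share no sample tag with the other groups. In contrasts across them, tag cannot be told apart from treatment or time.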
